A study of Mus musculus with 9 samples.

Results

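The genes described here are the RNAs that the mitochondrial genome contributes to its own translation machinery: the ribosomal RNAs mt-Rnr1 and mt-Rnr2 and the transfer RNA mt-Tp. They were taken by gene name from the deposited count tables, which gave 3 genes of 237 listed in all, and all 3 were among the 194 genes that stood in both tables. The 9 libraries hold total RNA from C57BL/6 mice, taken from the mPFC (medial prefrontal cortex). The insoluble fraction of mice aged 22 months gave 3 libraries, overexpression of YTHDF1 and YTHDF2 (OE) gave 3, and RNA immunoprecipitation of YTHDF2 (RIP) gave 3. The labels leave out how old the OE and RIP mice were, which fraction the OE RNA came from, the vector and promoter of the overexpression, and any control precipitation. They also leave out whether the libraries of a group came from separate animals, so p-values measure the spread between these libraries, which may be technical.

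Mitochondria keep a small circular genome that is transcribed from both strands as long precursors, and most transfer RNAs in it lie between the other genes and mark where the precursor is cut. mt-Rnr1 encodes the RNA of the small subunit of the mitochondrial ribosome, mt-Rnr2 that of the large subunit, and mt-Tp the transfer RNA that carries proline. In brain, as in other tissues with a high energy demand, this ribosome makes the membrane-embedded core subunits of the respiratory chain. YTHDF1 and YTHDF2 are cytoplasmic proteins that bind RNA carrying N6-methyladenosine (m6A), and YTHDF2 is known for directing such RNA to decay.

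All 3 genes lie on chromosome M (GRCm38, GENCODE release M21). mt-Rnr1 (ENSMUSG00000064337) runs from 70 to 1024 on the plus strand, a length of 955 bases, and mt-Rnr2 (ENSMUSG00000064339) runs from 1094 to 2675 on the same strand, a length of 1582 bases. mt-Tp (ENSMUSG00000064372) is annotated from 15356 to 15422 on the minus strand, a length of 67 bases. The genes have no introns. mt-Tp is shown whole, because it held the highest counts of the tables in the insoluble and OE libraries, with the anticodon at positions 31 to 33 from its 5′ end in capitals. Loops were searched for the letters TGG, so the anticodon was set in advance and not found from structure. The only candidate loop had a stem with 5 of 5 bases paired.

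mt-Tp: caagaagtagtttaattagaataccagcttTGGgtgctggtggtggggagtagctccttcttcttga

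The ribosomal RNAs are shown around each GGACT, the letters most often met in m6A consensus sites, since the RIP was made with an m6A reader. The capitals mark GGACT. On the sense strand mt-Rnr1 held 3 copies and mt-Rnr2 1 copy, and on the opposite strand mt-Rnr1 held 0 and mt-Rnr2 1. mt-Tp held none on either strand. Of windows of the same length cut from the longest transcripts of nuclear protein-coding genes, 62.9% held GGACT on the sense strand at 955 bases, 80.1% at 1582 bases and 6.54% at 67 bases, and 84.0%, 94.9% and 11.9% held it on either strand. These shares count windows with at least 1 copy, and the windows were not matched for base composition. A match describes the sequence and is no measure of a modified base.

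mt-Rnr1, chrM:203-263: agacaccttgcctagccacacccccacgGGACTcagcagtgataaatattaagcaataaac
mt-Rnr1, chrM:560-620: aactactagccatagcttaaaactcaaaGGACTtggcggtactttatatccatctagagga
mt-Rnr1, chrM:806-866: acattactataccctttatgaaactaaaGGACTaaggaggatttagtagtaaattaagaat
mt-Rnr2, chrM:2030-2090: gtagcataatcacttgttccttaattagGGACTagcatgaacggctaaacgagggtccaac

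Copies of mitochondrial sequence elsewhere can draw reads away from these genes. Of the 50-base words of mt-Rnr1 and of mt-Tp, 100% occurred in no annotated transcript of a nuclear gene, on either strand, and of those of mt-Rnr2 99.0% did not. The shared words of mt-Rnr2 fell in Gm20594, a nuclear gene, and the longest shared stretch had 65 bases, given here in capitals with its flanks, because it is where counts of mt-Rnr2 could be split. Nuclear copies outside annotated transcripts were not examined.

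mt-Rnr2, chrM:2082-2186: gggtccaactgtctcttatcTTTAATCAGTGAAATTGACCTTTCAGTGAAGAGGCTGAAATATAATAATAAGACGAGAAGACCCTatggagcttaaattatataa

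The tables hold a selection of genes, by a criterion not given in the sources used here, so the counts summed over the 194 genes of both tables, 61610 to 71736 in the insoluble fraction, 73851 to 91271 in OE and 79389 to 83620 in RIP, are not sequencing depths, which are unknown. Every scaling between libraries rests on such listed genes, those of both tables or, for OE against insoluble, the 237 genes of the OE table. The tissue label was not checked, since 0 of 18 neuron, 8 astrocyte, 10 oligodendrocyte and 9 microglia markers could be analysed here. The RIP libraries differed from each other most. Chi-square per degree of freedom was 5.96 to 12.8 for their pairs and 1.15 to 1.31 for pairs of insoluble libraries. It used those of the 194 genes with enough expected counts in both libraries of a pair. Ythdf1 and Ythdf2 were not analysed here, so neither the overexpression nor the precipitation was checked on them.

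The first question was how abundant these RNAs were. mt-Tp held 12767, 11916 and 10798 raw counts in insoluble replicates 1 to 3, 18159, 16947 and 14705 in OE and 2453, 2607 and 2417 in RIP. It ranked 1 of 194 genes by raw count in each insoluble and OE library, and 5 or 6 in the RIP libraries. It made up 17.7% ± 0.138 (SD, n = 3) of the counts of these genes in the insoluble fraction, 19.9% ± 0.0261 in OE and 3.04% ± 0.0797 in RIP. The RIP libraries stood far below the others. The use of strand in counting is not given in the sources used here, so reads from mt-Tp and from the opposite strand of the genome at its position cannot be told apart.

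mt-Rnr1 held 75, 80 and 60 raw counts in the insoluble libraries, 97, 79 and 66 in OE and 77, 77 and 71 in RIP. The raw counts of the 3 groups overlapped. It ranked between 115 and 139 of 194 genes. mt-Rnr2, the longer of the ribosomal RNAs, held 10, 8 and 4 raw counts in the insoluble fraction, 13, 4 and 5 in OE and 35, 36 and 34 in RIP. It ranked between 179 and 190 of 194 in the insoluble and OE libraries and between 161 and 163 in RIP, where every library held more than any library of the other groups.

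Per kb of gene, mt-Rnr1 had 75.0 ± 10.9 raw counts in the insoluble fraction, 84.5 ± 16.3 in OE and 78.5 ± 3.63 in RIP (SD, n = 3 each). mt-Rnr2 had 4.64 ± 1.93, 4.64 ± 3.12 and 22.1 ± 0.632 raw counts per kb in the same groups. Among the 13 mitochondrially encoded genes in both tables other than mt-Tp, mt-Rnr1 was 7th, 8th and 8th by mean count per kb in the insoluble, OE and RIP groups, and mt-Rnr2 12th, 13th and 10th. The mRNA mt-Nd2, for a subunit of complex I, held 2035.7 ± 127.6 raw counts in the insoluble fraction on a gene of 1038 bases, whereas mt-Rnr1 held 71.7 ± 10.4 on 955 bases. mt-Tp was left out of these ranks, because a fragment can be longer than its 67 bases, and fragment lengths are not given in the sources used here.

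Nearly all 50-base words of the ribosomal RNAs were unique. By count per kb in the insoluble fraction they stood below mt-Nd3, a complex I subunit with 2.01% unique words. mt-Nd3 was 3rd there, with 255.0 ± 19.1 raw counts (SD, n = 3). mt-Co2, a complex IV subunit with 0% unique words, was 10th with 6.33 ± 2.31 raw counts. Over the 13 mitochondrially encoded genes of both tables other than mt-Tp, Spearman's rho between count per kb and the percentage of unique words was 0.28 in the insoluble fraction, 0.24 in OE and -0.25 in RIP, points that come from the same libraries. The effect of nuclear copies on these counts was not tested. Whether ribosomal RNA was depleted before sequencing is not stated in the sources used here.

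**Figure D1:**
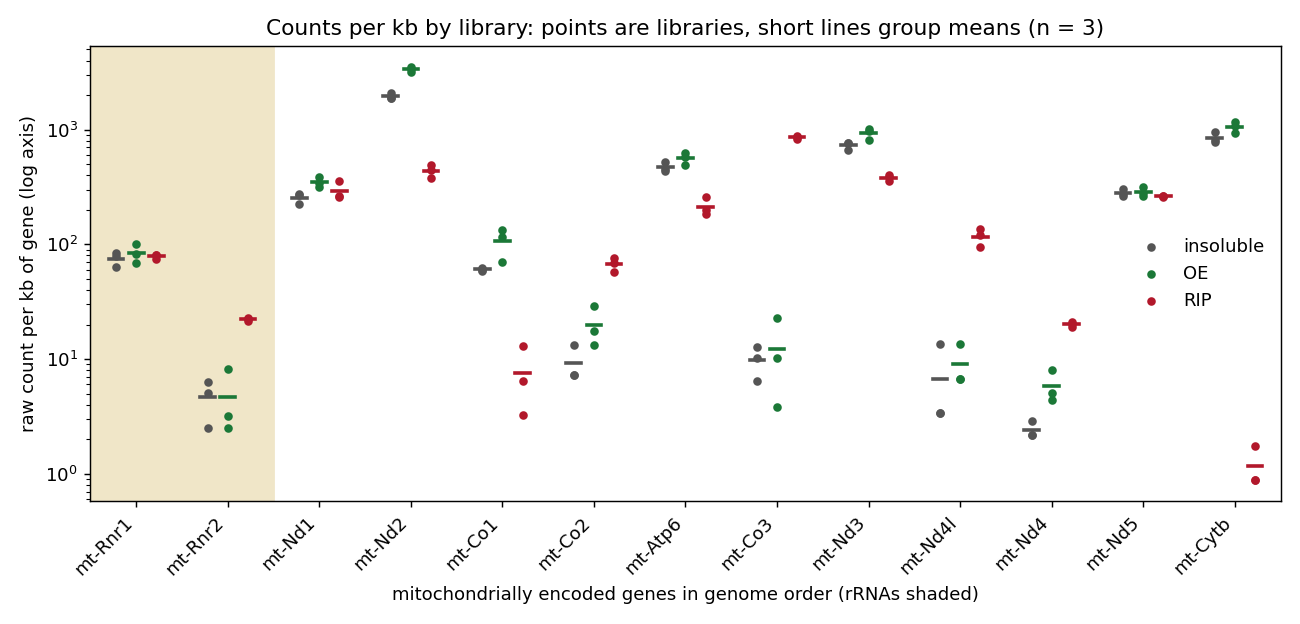
Raw counts per kb (vertical log axis) of 13 mitochondrially encoded genes in genome order, with the ribosomal RNAs shaded, by library (points) and group mean (short lines, n = 3). mt-Rnr1 lies near 75.0 to 84.5 in the 3 groups, while mt-Rnr2 lies at 4.64 in the insoluble and OE groups and at 22.1 in RIP.

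After scaling over all 9 libraries (TMM factors on the genes of both tables), mt-Tp stood at 13790 ± 56.6 normalised counts in the insoluble fraction, 16680 ± 121.4 in OE and 2174 ± 92.8 in RIP (SD, n = 3 each). mt-Rnr1 stood at 83.4 ± 8.36, 80.5 ± 6.98 and 65.4 ± 2.54, and mt-Rnr2 at 8.40 ± 2.97, 7.16 ± 4.15 and 30.5 ± 0.843. The order of the groups therefore differed between the genes: OE, insoluble and RIP for mt-Tp, insoluble, OE and RIP for mt-Rnr1, and RIP, insoluble and OE for mt-Rnr2. The insoluble and OE groups overlapped for both ribosomal RNAs. The coefficient of variation between libraries was 0.41% and 0.73% for mt-Tp in the insoluble and OE groups, and 35.4% and 57.9% for mt-Rnr2, which rested on few counts. In bulk tissue, fewer cells of a type and less RNA per cell cannot be told apart in any of these levels.

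**Figure D2:**
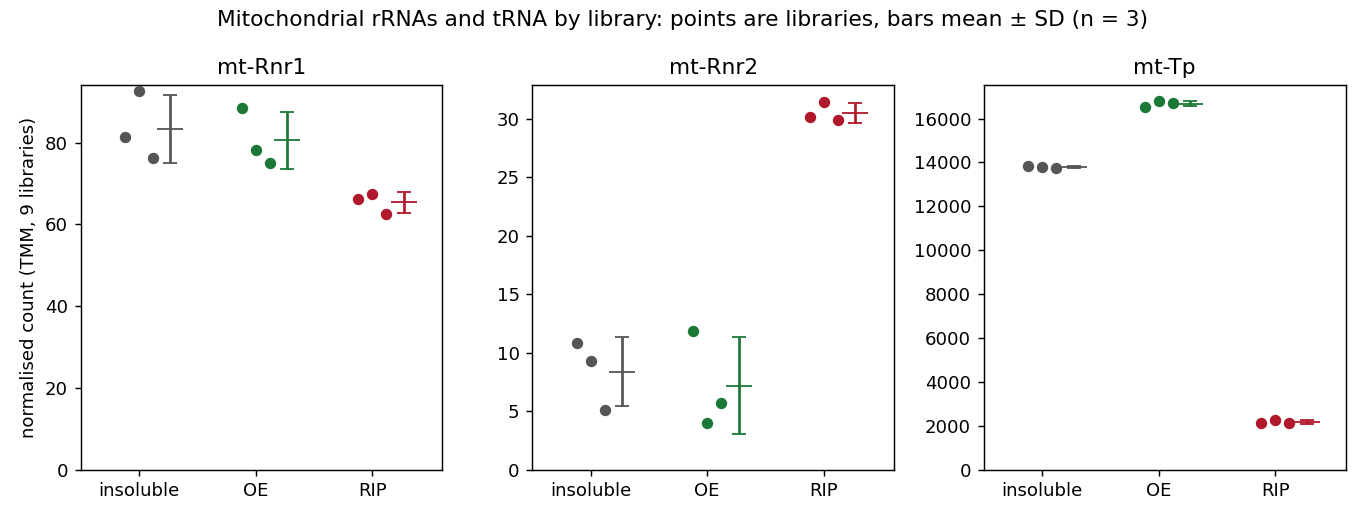
Normalised counts (vertical axis, from 0) of mt-Rnr1, mt-Rnr2 and mt-Tp in the 9 libraries, with group mean and SD (n = 3). RIP is lowest for mt-Tp, at 2174, and highest for mt-Rnr2, at 30.5, and for mt-Rnr1 the insoluble and OE points overlap.

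The comparison of OE with the insoluble fraction asked which RNAs differed between these groups. The age and fraction of OE are not labelled, so overexpression, fraction and age cannot be told apart in it. mt-Tp rose 1.20-fold, a log2 difference of 0.26 ± 0.02 (SE), with an adjusted p-value of 1.58e-21 (edgeR's quasi-likelihood test, Benjamini-Hochberg over all genes tested). All 3 OE libraries lay above all 3 insoluble libraries after scaling, and how many of all genes tested separated so was not counted. The step was small, and mt-Tp ranked 44th from the highest log2 fold change of 195 genes tested. Here 39.5% of all genes tested were called at an adjusted p-value under 0.05, 41 higher (21%) and 36 lower (18.5%), and 31 higher and 47 lower when libraries were scaled by their totals alone. Under that scaling the log2 fold change of mt-Tp was 0.17 (edgeR adjusted p = 6.42e-12).

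mt-Rnr1 did not pass the test in OE, with a log2 fold change of -0.06 ± 0.16 (SE; edgeR adjusted p = 0.778). mt-Rnr2 did not pass the filter on low counts. Without that filter its log2 fold change was -0.23 ± 0.52 (SE; edgeR adjusted p = 0.776), an error that leaves room for a change in either direction. So 1 of the 2 genes tested, mt-Tp, was called. Of the 12 mitochondrially encoded mRNAs in this table, 7 were tested, and 3 rose, 1 fell and 3 were not called, where 39.5% of all genes tested were called. mt-Nd2 and mt-Nd1, subunits of complex I, and mt-Co1, a catalytic subunit of complex IV, rose by log2 fold changes of 0.55, 0.21 and 0.58, and mt-Nd5 fell by 0.19 on the log2 scale. The median log2 fold change of the 7 was 0.12, against -0.01 over all 195 genes.

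The comparison of RIP with the insoluble fraction asked which RNAs differed between these groups. No control precipitation and no age of the RIP mice are labelled. Precipitation, fraction and age therefore cannot be told apart in it, and recovery with YTHDF2 was not measured. mt-Tp fell by 2.66 on the log2 scale, with an SE of 0.06, so that it was 6.30-fold higher in the insoluble fraction (edgeR adjusted p = 1.36e-09). It ranked 17th from the lowest log2 fold change of 190 genes tested. mt-Rnr2 moved the other way and rose by a log2 fold change of 1.83 ± 0.23 (SE), or 3.56-fold (edgeR adjusted p = 9.42e-05). DESeq2 gave a log2 fold change of 1.86 with a wider SE of 0.48. mt-Rnr2 passed the filter on low counts here through its RIP libraries alone, so its p-value adds no support beyond the counts. Neither gene's groups overlapped, and the share of all genes tested whose groups lay apart like this was not counted. In this comparison 85.3% of all genes tested were called, 77 higher (40.5%) and 85 lower (44.7%), with 84 higher and 78 lower under library totals and 68 higher and 96 lower under upper-quartile scaling, so a call by itself says little about these genes.

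mt-Rnr1 was lower in RIP by a small step, with a log2 fold change of -0.34 ± 0.13 (SE) and an edgeR adjusted p-value of 0.0397. Its normalised counts in this fit were 81.2, 92.5 and 76.1 in the insoluble libraries and 66.2, 68.7 and 62.4 in RIP. The groups did not overlap, a separation that was not counted over all genes tested. The call did not hold in every alternative. DESeq2 gave an adjusted p of 0.161 and library totals 0.119, and edgeR lost it without insoluble replicate 1 (adjusted p = 0.0739), insoluble replicate 2 (0.159), RIP replicate 1 (0.0725) or RIP replicate 3 (0.104).

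Of the 11 mitochondrially encoded mRNAs tested in RIP, 4 rose, 6 fell and 1 was not called, where 85.3% of all genes tested were called. Their median log2 fold change was -0.51 against 0.03 over all genes. mt-Co3, a subunit of complex IV, rose by a log2 fold change of 6.03, while mt-Cytb, the cytochrome of complex III and the nearest listed gene to mt-Tp on the genome, held 1, 2 and 1 raw counts in RIP against 1096, 929 and 895 in the insoluble fraction. mt-Nd1, the mRNA next to mt-Rnr2 apart from a transfer RNA gene, was not called, at -0.20 ± 0.14 (SE; edgeR adjusted p = 0.218). mt-Tp was thus 3rd from the lowest of 14 mitochondrially encoded genes by log2 fold change, mt-Rnr1 8th and mt-Rnr2 10th. The other RNAs of the pathway could not be set beside them, since none of the 105 mitochondrial ribosomal proteins, 13 transcription factors and replication proteins, 22 processing and decay factors and 24 modification enzymes on fixed lists was among the genes analysed here.

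Markers of other cells were summed in the same libraries. The 3 myeloid and blood markers analysed of 12 summed to 0.724% to 0.846% of the counts in the insoluble libraries and to 1.433% to 1.503% in RIP. The 7 endothelial markers analysed of 14 summed to 0.790% to 0.822% and to 0.989% to 1.775%, highest in RIP replicate 2. In the OE libraries the sums were 0.573% to 0.672% for the myeloid and blood markers and 0.805% to 0.817% for the endothelial markers. Gene by gene, 2 of the 7 endothelial markers tested rose in RIP, 2 fell and 3 were not called, and of the 3 myeloid and blood markers 2 rose and 1 fell, where 85.3% of all genes were called. In OE against insoluble 3 of 7 endothelial markers tested rose and 2 of 3 myeloid and blood markers fell, where 39.5% of all genes were called. The 7 endothelial markers tested there held Flt1, which rose, in place of Cldn5. Their part in the results was not tested.

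The RIP comparison carries a limit of its own. In the authors' deposited table the fold change of mt-Tp was 6.72 (unadjusted p = 1.79e-09), close to the 6.30 of insoluble over RIP from the counts. The fold change of mt-Rnr1 in the authors' deposited table was 0.796 (unadjusted p = 5.3e-07), close to the 0.789 of RIP over insoluble, the inverse ratio. For mt-Rnr2 the authors' deposited table gave 0.917 (unadjusted p = 0.000180), near neither the 3.56 of RIP over insoluble nor its inverse, 0.281. No single direction of that column therefore matches the counts of all 3 genes. Over the 14 mitochondrially encoded genes of the authors' deposited table, 2 lay within 25% of insoluble over RIP, 2 within 25% of RIP over insoluble and 10 near neither. In the authors' deposited table for OE, 5 of 9 tested genes lay within 25% of insoluble over OE alone, the other 4 within 25% of both ratios. The mean signal per gene was the same in both deposited tables for all 194 genes, although only 1 of the tables holds RIP counts. Whether the RIP counts stand on the rows of their genes was not tested, and all RIP values here take the rows as deposited.

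**Figure D3:**
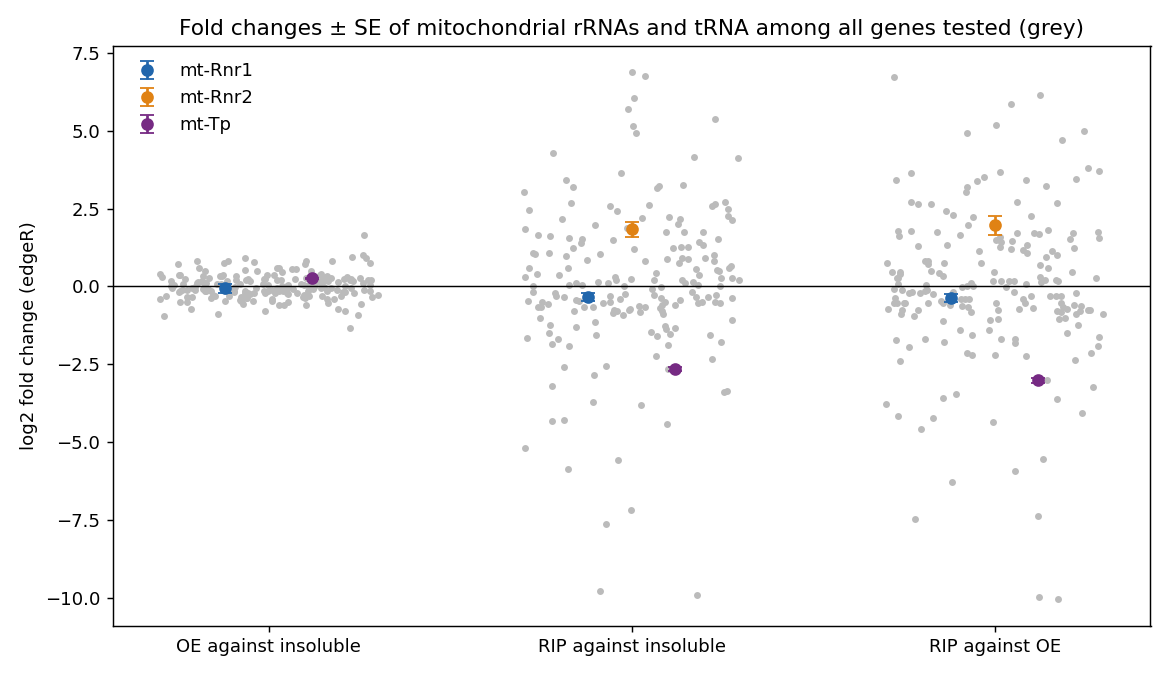
Log2 fold changes with SE derived from the edgeR test (vertical axis) of mt-Rnr1, mt-Rnr2 and mt-Tp in the 3 comparisons, over all genes tested in each (grey points). In both RIP comparisons mt-Tp lies low, at -2.66 and -3.01, mt-Rnr2 high, at 1.83 and 1.97, and mt-Rnr1 between them, at -0.34 and -0.37. In OE against insoluble the values lie within 0.26 of 0 and mt-Rnr2 was not tested.

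RIP was also set against OE, the pair of groups that no deposited table compares. This comparison shares its RIP and OE libraries with those above, so its values stand beside theirs and do not add to them. mt-Tp fell by 3.01 on the log2 scale with an SE of 0.08 (edgeR adjusted p = 3.90e-08), which left it 8.07-fold higher in OE. mt-Rnr2 rose by a log2 fold change of 1.97 ± 0.30 (SE; edgeR adjusted p = 0.000507), and by 2.57 when OE replicate 1, the OE library with the most mt-Rnr2 counts, was left out. The SE in DESeq2 was wider, at 0.48. Here too mt-Rnr2 passed the filter on low counts only through its RIP libraries. mt-Rnr1 had a log2 fold change of -0.37 ± 0.13 (SE; edgeR adjusted p = 0.0252), a call that DESeq2 (adjusted p = 0.174) and library totals (0.569) did not make, nor edgeR without OE replicate 1 (0.0579) or RIP replicate 3 (0.0587). Of all 191 genes tested 81.7% were called, 72 higher (37.7%) and 84 lower (44%), and 88 higher and 67 lower with library totals. Of the 11 mitochondrially encoded mRNAs, 4 rose and 7 fell.

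Because scaling between libraries is uncertain here, the genes were also compared with each other inside each library, where no scaling enters. The ratio of mt-Rnr2 to mt-Rnr1 raw counts was 0.133, 0.1 and 0.0667 in insoluble replicates 1 to 3, 0.134, 0.0506 and 0.0758 in OE and 0.455, 0.468 and 0.479 in RIP. The means were 0.1 ± 0.0333, 0.0868 ± 0.0428 and 0.467 ± 0.0122 (SD, n = 3 each). RIP lay above every library of the other groups, which overlapped with each other. Compared on the log2 scale, the geometric mean of the ratio was 4.86-fold higher in RIP than in the insoluble fraction (p = 0.1, exact permutation test, two-sided; 0.15 after Benjamini-Hochberg adjustment over 3 pairs of groups) and, by geometric means, 5.83-fold higher than in OE (exact permutation p = 0.1, adjusted 0.15). With 3 libraries against 3 the smallest p possible is 0.1. OE and insoluble had an exact permutation p of 0.8.

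Both ribosomal RNAs together made up 0.482% ± 0.0568 of the counts of the 14 mitochondrially encoded genes in the insoluble fraction, 0.377% ± 0.0506 in OE and 2.25% ± 0.0645 in RIP (SD, n = 3 each). The RIP share exceeded the others without overlap (exact permutation p = 0.1 against either group, adjusted 0.15), and the OE and insoluble groups overlapped (exact permutation p = 0.2). mt-Tp made up 72.3% ± 0.621 of the same counts in the insoluble fraction, 71.7% ± 0.510 in OE and 51.0% ± 1.42 in RIP. With mt-Tp left out of the sum, the share of the ribosomal RNAs was 1.74% ± 0.245, 1.33% ± 0.189 and 4.60% ± 0.228, highest in RIP. All 14 genes together held 24.5% ± 0.185, 27.8% ± 0.186 and 5.96% ± 0.1002 of the counts of the genes in both tables. The sum was thus smaller in RIP, so a higher share there need not mean more ribosomal RNA. Of the counts of the genes in both tables, mt-Rnr1 held 0.107% in the insoluble fraction, 0.0962% in OE and 0.0915% in RIP. mt-Rnr2 held 0.0108%, 0.00857% and 0.0427% in the same groups. The ratio of mt-Tp to mt-Rnr1 raw counts was 166.4 ± 15.9, 208.2 ± 18.6 and 33.3 ± 1.21 in the 3 groups.

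**Figure D4:**
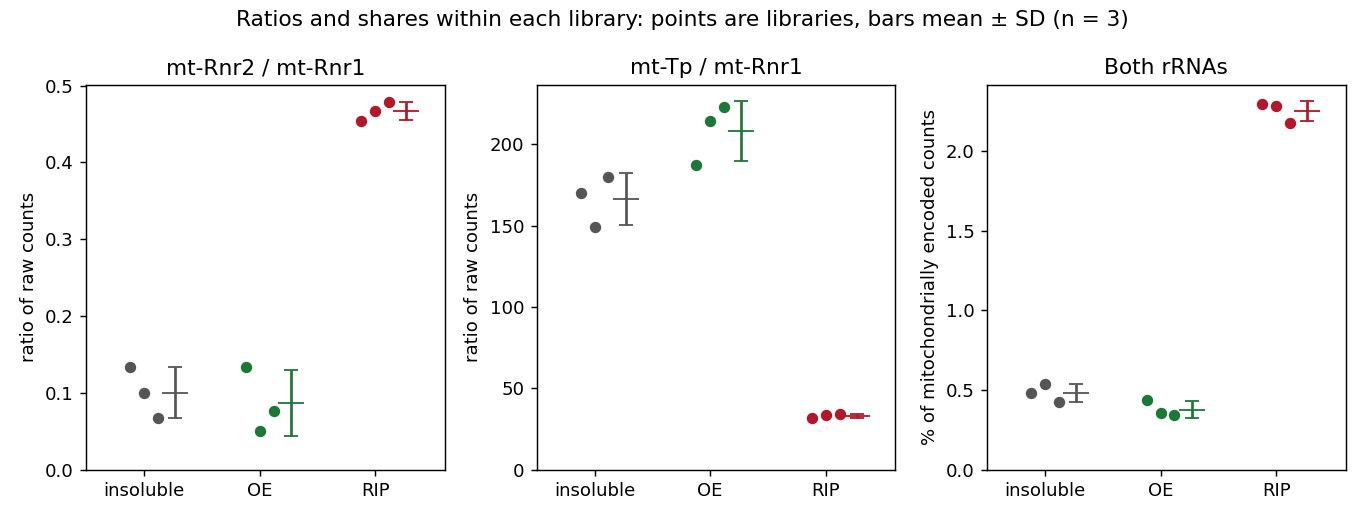
Ratio of mt-Rnr2 to mt-Rnr1, ratio of mt-Tp to mt-Rnr1 and percentage of both ribosomal RNAs in mitochondrially encoded counts (vertical axes, from 0), by library with group mean and SD (n = 3). The RIP libraries stand apart in each panel, at means of 0.467, 33.3 and 2.25%.

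The genes with the most similar profiles over the 9 libraries were found by Pearson's correlation of log2(normalised count + 1) among 192 genes. For mt-Tp they were Sbsn (r = 0.9996), Ict1os (0.997) and mt-Cytb (0.997). For mt-Rnr2 they were Rpl39-ps (0.984), Atp10a (0.952) and mt-Co3 (0.942), and for mt-Rnr1 Gm14539 (0.887), Gm6939 (0.884) and Rn7sk (0.874), the gene of a small nuclear RNA. mt-Rnr1 and mt-Rnr2, neighbours on the same precursor, had r = -0.61, and mt-Tp had r = 0.84 with mt-Rnr1 and -0.91 with mt-Rnr2. The 9 points fall into the RIP libraries and the rest, so the values largely follow the step between those sets.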

How the data were processed

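The submitters' processing notes list Bowtie2 2.2.3, HISAT2 2.1.0, HTSeq 0.6.0 and the build mm10, without roles, and the use of strand is not given in the sources used here. Per the file headers, the authors deposited raw counts per gene and library, a mean signal, and for each gene an unadjusted p-value beside a linear fold change (a ratio whose direction is not stated). The OE table has 961 rows, of which 724 (75.3%) name no gene and were left out. Insoluble counts were the same in both tables, which allowed RIP and OE to be compared on 194 genes.

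Each comparison was fitted on its 6 libraries with edgeR 4.0.16 (R 4.3.3): filterByExpr (minimum count 10, total 15), TMM scaling, quasi-likelihood test, Benjamini-Hochberg adjustment over all genes tested, threshold 0.05. Each edgeR SE was the size of the log2 fold change divided by the square root of the test's F statistic. DESeq2 1.42.0, other scalings, no filter, a replicate block and left-out libraries were alternatives. Sequences are those of GENCODE M21 transcripts (GRCm38, the assembly of mm10), searched with words of 30 and 50 bases. Insoluble replicates 2 and 3 differed least, and were kept as separate libraries. Their chi-square p was 0.0457 among 237 genes and 0.0813 among 194, using the genes with enough expected counts. Named genes were the 3 described, other mitochondrially encoded genes, listed genes that passed the test, and the 3 genes most similar to each. Genes and lists were chosen with earlier results of these data known.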

Additional observations from a re-analysis of the deposited data

How the results depend on the processing

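mt-Tp and mt-Rnr2 were called in the same direction under all alternatives fitted for RIP against insoluble and RIP against OE, and so did mt-Tp for OE against insoluble, where its log2 fold change ran from 0.17 to 0.28. For mt-Rnr2 the log2 fold change ran from 1.49 to 2.11 against insoluble and from 1.68 to 2.57 against OE, and for mt-Tp from -3.00 to -2.54 and from -3.23 to -2.71. mt-Rnr1 was called in 6 of 13 alternatives for RIP against insoluble and in 7 of 12 for RIP against OE. Its log2 fold changes in these were -0.33 and -0.30 in DESeq2, with SEs of 0.23 and 0.20, and -0.23 and -0.075 with library totals. Upper-quartile scaling gave log2 fold changes of -0.69 (edgeR adjusted p = 0.00118) and -0.60 (0.00284). With the replicate block they were -0.34 (edgeR adjusted p = 0.0855) and -0.37 (adjusted p = 0.0686), both no longer called. Same-numbered libraries deviated with correlations of -0.21 to 0.09, which gave no ground for treating equal numbers as pairs, and the block called 73, 160 and 151 genes against 77, 162 and 156. Leaving out 1 library at a time gave mt-Rnr1 -0.38 to -0.23 (RIP against insoluble), -0.41 to -0.31 (RIP against OE) and -0.14 to 0.032 (OE), mt-Rnr2 in OE -0.83 to 0.063, and 55 to 75, 156 to 165 and 152 to 157 called genes. Over all genes, the median log2 fold change of RIP against insoluble was 0.03 in the reported fit, -0.32 with upper-quartile scaling and 0.14 with library totals, and that of RIP against OE was -0.10, -0.32 and 0.20. Directions are relative to these shifts. Per kb, the ratio of mt-Rnr2 to mt-Rnr1 was 0.0604 in the insoluble fraction and 0.282 in RIP, by the construction of that scale. Without mt-Co3 and mt-Cytb the ribosomal RNAs made up 2.61% in RIP, as fewer genes were summed. Summing insoluble replicates 2 and 3, chosen after seeing the data, changed no call of the 3 genes. mt-Rnr2 passed the filter in both RIP comparisons through its RIP counts, so its p-values there add no support beyond the counts. Low counts of mt-Rnr2 limit what could be detected in OE, and unknown depth limits all levels.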
